A study of Homo sapiens with 27 samples.

Results

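*PLK2*, which encodes polo-like kinase 2, was measured together with 8 other genes described as targets of p53: *PLK3*, *MDM2*, *SESN1*, *TP53INP1*, *ZMAT3*, *FAS*, *BAX* and *GADD45A*. These 9 genes were taken by symbol from the 61533 genes of the count table. *PLK2* was selected on its measured counts, which were lower with the inhibitor on every day, so its difference between inhibitor and vehicle is given here as a description with no test. The cells were 92.1, 1 established uveal melanoma line that carries an oncogenic *GNAQ* mutation, grown in RPMI with serum. They received either DMSO or the focal adhesion kinase inhibitor VS-4718 (FAKi) at 100 nM, renewed with the medium every 72 h. RNA was sequenced from 3 DMSO libraries at day 0 and from 3 DMSO and 3 FAKi libraries at each of days 3, 7, 14 and 21, which makes 27 libraries in 9 groups. All groups came from this line, and there was no FAKi library at day 0.

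p53 is a transcription factor that is stabilised by DNA damage and other stress and that binds response elements near its target genes. *MDM2* encodes the ubiquitin ligase that degrades p53 and so closes a negative feedback loop. The products of the other genes slow the cell cycle, restrain growth signalling or prepare the cell for apoptosis. *PLK2* was first described as a serum-inducible early gene, and its kinase acts in centriole duplication and at synapses. It therefore answers to growth signals as well as to p53. Focal adhesion kinase, the product of *PTK2*, passes signals from integrins and growth factor receptors, and in uveal melanoma it lies downstream of the mutant Gα protein.

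The libraries held 12161994 to 43651551 counts (median 24759579), and at days 3 and 14 all 3 DMSO libraries were larger than every FAKi library. Mitochondrial transcripts made up 5.49% to 26.97% of the counts. Levels are given as CPM, the count scaled to library size with factors from the trimmed mean of M values. When each pair of libraries was compared by the root mean square of the differences in log2 CPM over genes, 9 of 27 libraries were nearest to a library of another group, and 3 were over 2 times closer to another group than to their own. FAKi day 7 replicate 1 lay 0.215 from FAKi day 14 replicate 1 and 0.708 from its nearest fellow replicate, DMSO day 21 replicate 3 lay 0.324 from DMSO day 3 replicate 3 and 0.721 from its own group, and DMSO day 3 replicate 1 lay 0.261 from DMSO day 0 replicate 3 and 0.577 from its own group. The day labels of these 3 libraries were used as given, and whether they are right was not tested; for DMSO day 21 replicate 3 the title says day 21, while the sample's description writes the day differently, with a further digit in front of 21. Calls for single genes of the 9 that change between 2 groups without these libraries are given with and without them. The melanocyte markers *PMEL* (2613 to 8111 CPM), *TYRP1* (3392 to 7059 CPM) and *MLANA* (476 to 879 CPM) were high in every library, and *SOX10*, *TYR* and *MITF* stood at 125 CPM or more. The other 2 markers of that list were low, *DCT* at 2.49 to 28.5 CPM and *S100B* at 0.294 to 2.10 CPM. *KRT5* of epithelium was at 0 in all libraries, *CDH1* of the same list was at 0.284 to 2.05 CPM, and the leukocyte marker *PTPRC*, the fibroblast marker *COL1A2* and the endothelial marker *CDH5* were below 0.3 CPM. *LUM* and *COL1A1* of the 5 fibroblast markers reached 8.66 and 9.90 CPM. The summed level of the 4 leukocyte markers was nearly all *CD68*, a lysosomal protein gene, and at day 21 it was 59.0 to 70.9 CPM with DMSO and 23.5 to 26.6 CPM with FAKi, with *PTPRC*, *LYZ* and *CD3E* at or near 0. *PTK2*, whose product is inhibited and not removed, stood at 101 to 165 CPM.

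The genes lie on separate chromosomes except for *PLK3* and *GADD45A*, which share chromosome 1 (hg38). *PLK2* occupies chr5:58453982-58460086 on the minus strand and was counted over the 14 exons of its transcript. *PLK3* lies at chr1:44800388-44805990, *MDM2* at chr12:68808177-68845544, *FAS* at chr10:88986740-89029605, *BAX* at chr19:48954929-48961798 and *GADD45A* at chr1:67685201-67688334, all on the plus strand. *SESN1* lies at chr6:108984309-109094846 and *ZMAT3* at chr3:179017223-179071809, both on the minus strand. Exons of genes on the opposite strand covered 12.26% of the counted *MDM2* exons and 3.78% to 4.29% of those of *SESN1*, *PLK3* and *TP53INP1*. Exons of other genes on the same strand covered 5.86% of the *MDM2* exons. The strand setting of the counting is not given in the sources used here.

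Because the genes were grouped as p53 targets, the 250 bases before each RefSeq transcription start (GRCh38.p14) were searched on both strands for the p53 response element consensus, with at most 3 mismatches over its 20 bases and no spacer. Entries were matched for 7 of the 9 genes, with 15 windows, and *TP53INP1* was not searched. Matches were present upstream of *MDM2*, *SESN1* and *FAS*. Of 34941 promoter windows of the same length 4.36% held a match. That share is per window, whereas these genes had several windows each, some of them overlapping, so the genes cannot be set directly against it. The stretches below are shown because they hold these matches, and the *PLK2* stretch because it holds none. Capitals mark p53 consensus matches, and in *PLK2* the cyclic AMP response element core TGACGT, which 7.09% of the promoters held. The stretches run 5′ to 3′ and leave out bases annotated as untranslated region in any transcript.
*PLK2*, chr5:58460140-58460336, minus strand: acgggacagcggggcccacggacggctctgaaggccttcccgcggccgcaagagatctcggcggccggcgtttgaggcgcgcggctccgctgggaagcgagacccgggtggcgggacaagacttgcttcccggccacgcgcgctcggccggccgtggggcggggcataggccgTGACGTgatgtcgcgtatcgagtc
*MDM2*, chr12:68808767-68809001, plus strand: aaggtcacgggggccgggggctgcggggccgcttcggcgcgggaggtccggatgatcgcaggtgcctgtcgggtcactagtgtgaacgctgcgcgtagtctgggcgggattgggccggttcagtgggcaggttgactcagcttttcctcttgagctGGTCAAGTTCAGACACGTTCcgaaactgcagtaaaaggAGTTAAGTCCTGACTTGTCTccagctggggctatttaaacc
*SESN1*, chr6:109008989-109009238, minus strand: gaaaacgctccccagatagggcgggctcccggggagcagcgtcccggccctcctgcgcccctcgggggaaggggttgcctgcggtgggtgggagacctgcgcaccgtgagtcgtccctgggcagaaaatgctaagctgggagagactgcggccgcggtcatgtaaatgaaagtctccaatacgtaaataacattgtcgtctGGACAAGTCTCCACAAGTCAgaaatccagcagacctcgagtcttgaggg
*FAS*, chr10:88991309-88991328, plus strand: GGACAAGCCCTGACAAGCCA
The pair of *MDM2* matches had 2 and 3 mismatches and lay in intron 1 of the counted transcript, before an internal start. The *SESN1* match had 3 mismatches and lay in intron 1, and the *FAS* match had 2 mismatches and lay in intron 3 of the counted transcript. A TATATAA motif lay 30 bases before the start of *PLK2* (2.42% of promoters), and the E-box CACGTG occurred 4 times before *BAX* (6.32% of promoters held it). Both strands of each motif were searched and a match describes letters only.

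Per kilobase of counted transcript, *BAX* had the highest level of the 9 genes, at 48.5 ± 13.4 CPM per kb (SD, n = 27 libraries). *GADD45A* followed at 6.83 ± 1.71, *TP53INP1* at 5.41 ± 2.48, *ZMAT3* at 5.24 ± 0.989 and *MDM2* at 4.86 ± 1.06 CPM per kb, and the ranges of these 4 genes overlapped. *PLK2* reached 2.53 ± 1.01 CPM per kb, and *SESN1* and *PLK3* both 1.88 CPM per kb (SD 0.541 and 0.341). *FAS*, the cell surface death receptor, was lowest at 0.139 ± 0.0536 CPM per kb, over a counted transcript of 16463 bases. It rested on 14 to 135 counts per library, *PLK2* on 51 to 482 and *BAX* on 648 to 3867. In bulk RNA, fewer cells that express a gene and less of its RNA per cell cannot be told apart.

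*PLK2* was lower with FAKi on all 4 days, and no FAKi library reached the lowest DMSO library of its day. At day 0 it stood at 10.1, 10.3 and 9.41 CPM in replicates 1 to 3. At day 3 the DMSO libraries held 10.7, 11.5 and 10.6 CPM and the FAKi libraries 6.68, 4.96 and 4.03 CPM. At day 7 they held 8.16, 7.53 and 7.19 CPM with DMSO and 4.96, 2.10 and 3.01 CPM with FAKi. The highest FAKi value of day 7 was that of replicate 1, the library that lay near FAKi day 14. At day 14 the values were 8.66, 8.95 and 6.13 CPM with DMSO and 4.72, 3.65 and 4.62 CPM with FAKi. At day 21 they were 9.36, 8.58 and 10.1 CPM with DMSO and 3.92, 3.91 and 4.93 CPM with FAKi. *PLK2* was chosen for lower counts on every day, which favours separate groups but does not require them. The groups did not overlap on any day. The same held, in the lower direction on all 4 days, for 85 of 21147 genes (0.402%). Because *PLK2* was chosen on these same counts, this share gives no test of it.

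**Figure D1:**
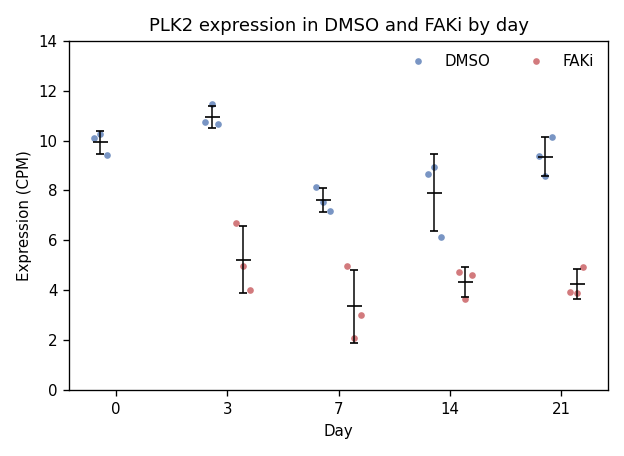
*PLK2* expression in CPM (y axis) by day (x axis, days as categories) in DMSO (blue) and FAKi (red). Each point is 1 library, and the black bars are the mean ± SD of 3 libraries. From day 3 on, FAKi libraries sit between 2.10 and 6.68 CPM, and on each day all lie below the 3 DMSO libraries.

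The log2 fold change of *PLK2*, FAKi against DMSO, was -1.05 ± 0.22 (SE) at the earliest time, day 3. It was -1.19 ± 0.29 at day 7, -0.87 ± 0.22 at day 14 and -1.08 ± 0.18 by day 21. This was a 1.83 to 2.28-fold lower level. Over the 4 days the mean effect was -1.05 ± 0.12. Without FAKi day 7 replicate 1 the difference at day 7 was -1.61. The DMSO group means, from high to low, were those of day 3 (10.9 ± 0.451 CPM, SD, n = 3 as for all groups), day 0 (9.92 ± 0.451 CPM), day 21 (9.36 ± 0.781 CPM), day 14 (7.91 ± 1.55 CPM) and day 7 (7.63 ± 0.488 CPM). The ranges of neighbours in this order overlapped except between day 3 and day 0. All 4 FAKi means were lower than these, at day 3 (5.22 ± 1.34 CPM), day 14 (4.33 ± 0.590 CPM), day 21 (4.25 ± 0.587 CPM) and day 7 (3.36 ± 1.46 CPM). The FAKi groups overlapped with each other, and the highest FAKi library of day 3 (6.68 CPM) lay above the lowest DMSO library of day 14 (6.13 CPM).

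Change over time within each treatment was not part of the choice and was tested with the quasi-likelihood test of edgeR, adjusted over all genes by the Benjamini-Hochberg method. In DMSO *PLK2* did not pass the test of a difference among the 5 days at the threshold of 0.05 (adjusted p = 0.0572), with changes from day 0 of 0.13 ± 0.17 for day 3, -0.39 ± 0.17 for day 7, -0.32 ± 0.17 for day 14 and -0.07 ± 0.17 for day 21. The DMSO test lay near its threshold, and it passed with upper quartile scaling (adjusted p = 0.0444), with a minimum of 10 counts in every library (0.0371), with DESeq2 (0.0204), without DMSO day 14 replicate 2 (0.0450) and without DMSO day 21 replicate 3 (0.0465). In FAKi it did not pass over the 4 days either (adjusted p = 0.270). Without FAKi day 7 replicate 1 the FAKi days differed (adjusted p = 0.0103), with *PLK2* lower at day 7 than at day 3 by a log2 fold change of -1.08 (adjusted p = 0.0112) against -0.66 with all libraries (adjusted p = 0.382).

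Of the other 8 genes, none passed the test between FAKi and DMSO at day 3 or day 7, 4 fell at day 14 and 1 fell at day 21. None of the 8 rose on any day. At day 14 the background was 12.4% of 23443 genes past the test (6.1% in the lower direction), and at day 21 it was 11.6% of 23212 genes (6.32% lower). For day 3 the background was 0 of 22846 genes with edgeR. At an unadjusted p below 0.05 there were 5442 genes (23.8%) and 2 of the 8. At day 7 it was 0.0269% of 22299 genes, and without adjustment 1 of the 8 was below 0.05 against 8.77% of all genes. DESeq2 also called 0 of the 8 on both of these days. None of the 8 passed with a change over 1 on the log2 scale, which 1.66% of genes did at day 14 and 5.28% at day 21. The median over the 8 was 0.19, 0.15, -0.35 and -0.24 in the order of the days, against -0.02, 0.01, -0.01 and 0.01 over all genes tested.

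**Figure D2:**
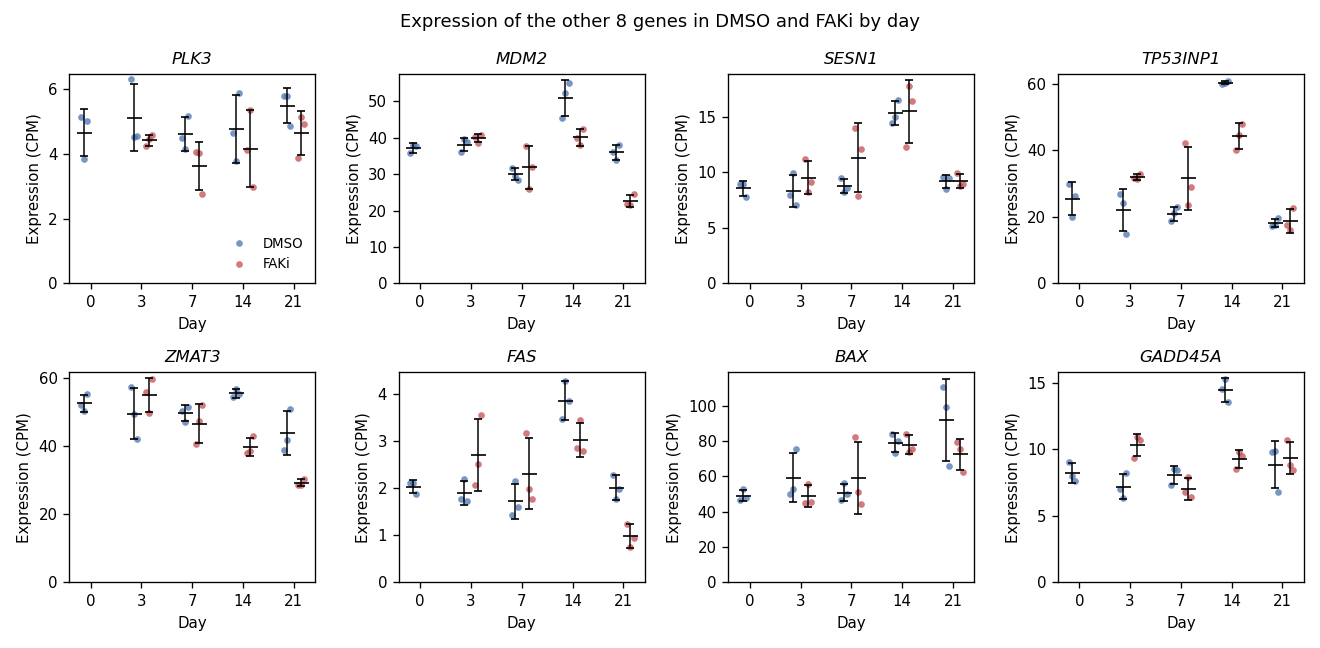
Expression in CPM (y axis, each starting at 0) of the other 8 genes by day (x axis, days as categories) in DMSO (blue) and FAKi (red), with 1 point per library and the mean ± SD of 3 libraries in black. *TP53INP1* peaks at day 14 in DMSO at 59.9 to 60.8 CPM, and *MDM2* is lowest in FAKi at day 21 at 21.5 to 24.5 CPM.

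*MDM2* changed at both late days. At day 14 it held 45.4, 52.2 and 55.1 CPM with DMSO and 39.9, 37.9 and 42.5 CPM with FAKi, and the log2 fold change was -0.35 ± 0.11 (adjusted p = 0.0431). At day 21 it held 36.1, 33.9 and 37.9 CPM with DMSO and 21.7, 21.5 and 24.5 CPM with FAKi, with a log2 fold change of -0.62 ± 0.13 (adjusted p = 0.0240). All FAKi libraries lay below all DMSO libraries on these 2 days, which 14.1% and 17.1% of all genes also showed. At day 3 the groups overlapped, with 36.0 to 39.6 CPM in DMSO and 38.7 to 40.9 CPM in FAKi. Both calls depended on which libraries were used. Leaving out 1 library at a time ended the day 14 call and the day 21 call in 5 of 6 fits each. In those fits the log2 fold change ran from -0.39 to -0.29 at day 14 and from -0.68 to -0.59 at day 21. The 1 fit that kept the call gave an adjusted p of 0.0124 at day 14 and 0.000502 at day 21. *MDM2* also fell short at day 14 with all 27 libraries in 1 fit (adjusted p = 0.0710). Mitochondrial transcripts took 20.7% to 22.1% of the FAKi and 22.0% to 26.97% of the DMSO counts at day 14, and 10.7% to 11.2% against 5.49% to 9.75% at day 21, and their part in the results of these days was not tested.

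*ZMAT3*, which encodes an RNA-binding zinc finger protein, gave the call at day 14 that no left-out library ended. It held 54.3, 56.8 and 55.2 CPM with DMSO and 38.0, 38.5 and 42.8 CPM with FAKi (log2 fold change -0.48 ± 0.11, adjusted p = 0.00378). At day 21 it held 38.7, 41.7 and 50.9 CPM with DMSO and 28.6, 28.6 and 30.3 CPM with FAKi. These groups also did not overlap, as in 17.1% of all genes in the lower direction. The difference of -0.54 ± 0.15 at day 21 was just above the threshold (adjusted p = 0.0523). The highest DMSO value was that of replicate 3, the library that lay near DMSO day 3, and without it *ZMAT3* passed with a smaller difference of -0.39 (adjusted p = 0.00646).

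*TP53INP1*, whose product promotes p53 phosphorylation and autophagy, had every FAKi library above every DMSO library at days 3 and 7, as 31.1% and 16.8% of all genes had in 1 direction or the other, and fell at day 14. At day 3 it held 26.9, 24.2 and 14.96 CPM with DMSO and 31.7, 31.4 and 33.0 CPM with FAKi (log2 fold change 0.55 ± 0.21, adjusted p = 0.164). The DMSO libraries of day 3 were spread widely, and without DMSO day 3 replicate 1 the difference was 0.73 and passed (adjusted p = 0.0111). At day 7 it held 18.8, 21.2 and 23.0 CPM with DMSO and 42.1, 23.7 and 29.0 CPM with FAKi (0.59 ± 0.21, adjusted p = 0.488). The highest FAKi value was again that of replicate 1. At day 14 it fell, from 59.9, 60.3 and 60.8 CPM with DMSO to 40.2, 44.5 and 48.0 CPM with FAKi (-0.45 ± 0.11, adjusted p = 0.00661). This call ended without FAKi day 14 replicate 1 (-0.39, adjusted p = 0.0675) and with all 27 libraries in 1 fit (-0.45, adjusted p = 0.147). At day 21 the groups overlapped at 17.3 to 19.7 and 15.9 to 22.7 CPM.

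*GADD45A*, which encodes a growth arrest and DNA repair protein, fell at day 14 from 14.5, 15.3 and 13.5 CPM with DMSO to 8.48, 9.78 and 9.52 CPM with FAKi (-0.65 ± 0.16, adjusted p = 0.00883). Without FAKi day 14 replicate 1 the difference was -0.58 (adjusted p = 0.0639). At day 3 it held 7.03, 6.31 and 8.23 CPM with DMSO and 9.37, 10.9 and 10.7 CPM with FAKi, a difference of 0.53 ± 0.19 (adjusted p = 0.142). The groups did not overlap at day 3, as in 31.1% of all genes in 1 direction or the other. The day 3 difference passed with all 27 libraries in 1 fit (0.54, adjusted p = 0.0309). At day 21 the groups overlapped (0.13 ± 0.20, adjusted p = 0.669).

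The death receptor gene *FAS* did not pass on any day. At day 21 it held 2.29, 1.76 and 1.99 CPM with DMSO and 1.25, 0.741 and 0.946 CPM with FAKi (log2 fold change -0.99 ± 0.31, adjusted p = 0.0691). The groups did not overlap, as in 17.1% of all genes in the lower direction. At day 3 the FAKi libraries, at 2.07, 2.52 and 3.55 CPM, overlapped with the DMSO libraries at 1.78, 2.19 and 1.72 CPM (0.52 ± 0.29, adjusted p = 0.293). At day 21 *FAS* passed without DMSO replicate 3 (-0.99, adjusted p = 0.0241).

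At day 21 the deviations of same-numbered libraries from their group means ran together over genes for replicates 1 and 3 (r = 0.443 and 0.658). For replicate 2 they did so weakly (r = 0.128), and the DMSO library of replicate 3 is 1 of those that stood apart. With the replicate number as a block 3 of the 8 genes fell at day 21 in place of 1. In that fit with the block *ZMAT3* changed by -0.53 (adjusted p = 0.00991) and *FAS* by -0.997 (adjusted p = 0.0408) beside *MDM2*. Without DMSO day 21 replicate 3, 4 of the 8 passed, *BAX* among them (-0.47, adjusted p = 0.00160).

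*BAX*, the pore-forming effector of mitochondrial apoptosis, overlapped between FAKi and DMSO on all 4 days, with log2 fold changes from -0.29 to 0.22. At day 21 it held 111, 99.3 and 66.1 CPM with DMSO and 79.8, 75.4 and 62.4 CPM with FAKi, and DMSO replicate 3 was the low one. *SESN1*, an inhibitor of mTORC1 signalling, also overlapped on all 4 days, with log2 fold changes from 0.01 to 0.36. *PLK3*, the stress-activated relative of *PLK2*, was slightly lower with FAKi on every day, from -0.35 to -0.19, but with standard errors of 0.20 to 0.27 no day passed. Its values ran from 2.77 to 6.30 CPM over all libraries and its groups were separate at day 7 only.

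**Figure D3:**
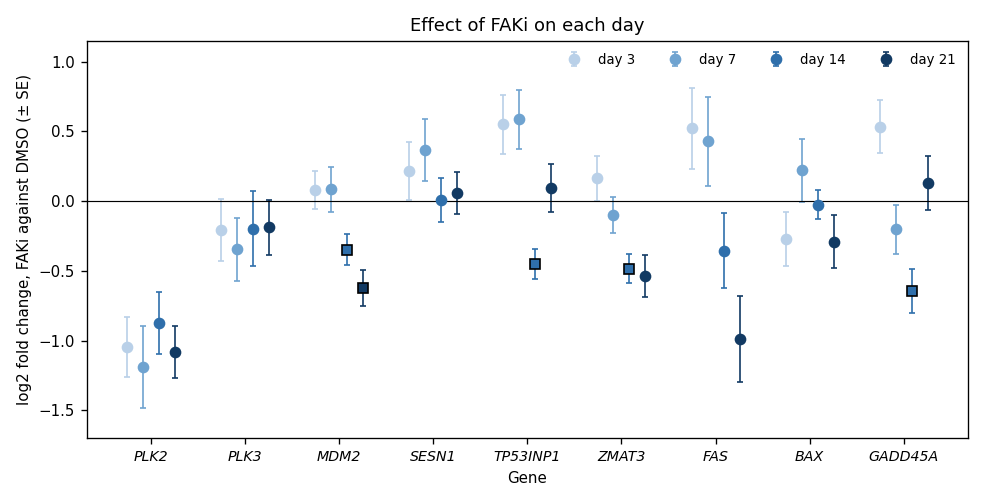
Log2 fold change of FAKi against DMSO (y axis, ± SE) for each gene (x axis) at days 3, 7, 14 and 21 (light to dark blue). Squares outlined in black had an adjusted p no higher than 0.05, and circles did not or, for *PLK2*, were not tested. *PLK2* lies between -1.19 and -0.87 on every day, and 4 of the other genes have squares at day 14.

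In a fit of 24 libraries that averaged the effect over days, 2 of the 8 genes fell with FAKi, against 15.7% of 27897 genes past the test (8.7% lower). These were *MDM2* (-0.21 ± 0.07, adjusted p = 0.0345) and *ZMAT3* (-0.24 ± 0.07, adjusted p = 0.0177). Of 24 fits that left out 1 library, *ZMAT3* kept its call in all and *MDM2* lost it in 11. The other 6 genes had mean effects from -0.24 for *PLK3* to 0.19 for *TP53INP1*. With the 3 libraries that stood apart left out together, *BAX* also fell (-0.25, adjusted p = 0.00591).

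The size of the FAKi effect differed among the days for 5 of the 8 genes, against 10.3% of 27897 genes. They were *GADD45A* (adjusted p = 0.0131), *MDM2* (0.0270), *TP53INP1* (0.0349), *FAS* (0.0423) and *ZMAT3* (0.0438). The *GADD45A* call was kept in all 24 fits that left out 1 library, and the others were lost in 3 to 16 of them. With the replicate number as a block 2 of the 8 passed, *GADD45A* (adjusted p = 0.0222) and *MDM2* (0.0375), while *TP53INP1* (0.0522), *ZMAT3* (0.0611) and *FAS* (0.0644) did not, and with no count filter the number was also 2. From day 3 to day 21 the effect moved downwards for *MDM2* (by -0.71 ± 0.19, adjusted p = 0.0344), *ZMAT3* (by -0.70 ± 0.20, adjusted p = 0.0429) and *FAS* (by -1.52 ± 0.42, adjusted p = 0.0415). That change passed for 3.59% of all genes (2.18% downwards), whose median change was 0.12. Without DMSO day 21 replicate 3 the *ZMAT3* change was -0.56 and no longer passed (adjusted p = 0.0626). Of the 24 fits that left out 1 library the call was lost in 7 for *MDM2*, 10 for *FAS* and 16 for *ZMAT3*. With the replicate block only *MDM2* passed (adjusted p = 0.0432), *ZMAT3* being at 0.0592 and *FAS* at 0.0607, and with no count filter none of the 3 did. For *PLK2* the same difference was -0.04 ± 0.34 and was not tested.

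Some of these genes also differed between days in DMSO, and the cause was not tested. At day 14, 6 of the 9 genes had risen from day 0, against 15.4% of 26193 genes past the test (7.34% higher). *TP53INP1* rose most, by 1.24 ± 0.19 on the log2 scale (adjusted p = 0.000416), from 29.9, 20.1 and 26.4 CPM at day 0 to the 59.9 to 60.8 CPM given above. *FAS* rose by 0.93 ± 0.25 (adjusted p = 0.0183), from 1.88 to 2.12 CPM at day 0 to 3.46 to 4.29 CPM. *SESN1* rose by 0.84 ± 0.16 (adjusted p = 0.00203), from 8.91, 8.97 and 7.75 CPM to 14.4, 14.98 and 16.5 CPM. For these 3 genes and for *GADD45A*, *BAX* and *MDM2* all day 14 libraries lay above all day 0 libraries, and for *PLK2* they lay below. The share of all genes without overlap was not counted for this comparison. *GADD45A* rose by 0.81 ± 0.18 (adjusted p = 0.00534), *BAX* by 0.69 ± 0.18 (adjusted p = 0.0174) and *MDM2* by 0.46 ± 0.12 (adjusted p = 0.0137). *PLK2*, *PLK3* and *ZMAT3* did not pass. The rises of *TP53INP1*, *SESN1* and *GADD45A* held in all 15 fits that left out 1 library, whereas those of *BAX*, *MDM2* and *FAS* were each lost in 3 or 4, and without DMSO day 0 replicate 1 only 3 rises were called. Mitochondrial transcripts took 22.0% to 26.97% of the counts in DMSO at day 14 against 16.98% to 18.8% at day 0, and their part in the rises was not tested.

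By day 21 in DMSO only *BAX* still stood above day 0 (0.92 ± 0.18, adjusted p = 0.00138), where 38.4% of all genes passed (20.3% higher). Its rise held in all 15 fits, and it was 0.26 at day 3 and 0.04 at day 7, where no gene of the 9 passed. At day 3 no gene of 26193 passed with edgeR, DESeq2 called 0 of the 9 and without adjustment 0 of the 9 were below 0.05. At day 7 the background was 0.157%, DESeq2 called 0 of the 9 and without adjustment 2 of the 9 were below 0.05. Without DMSO day 21 replicate 3, *TP53INP1* (-0.61, adjusted p = 0.0248) and *ZMAT3* (-0.45, adjusted p = 0.0108) also fell from day 0 to day 21, and *TP53INP1* did so as well without DMSO day 3 replicate 1 (-0.53, adjusted p = 0.0229). Over the 5 DMSO days together, 6 of the 9 genes differed, against 49.9% of all genes, and without DMSO day 21 replicate 3 *ZMAT3* differed too (adjusted p = 0.0312).

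The FAKi time course began at day 3, and over its 4 days 6 of the 9 genes differed, against 45.1% of 24969 genes. From day 3 to day 21, 4 genes fell and 1 rose, where 38.8% of all genes passed (19.6% lower, 19.2% higher). *FAS* fell by 1.42 ± 0.33 on the log2 scale (adjusted p = 0.00217), and *ZMAT3* fell by 0.89 ± 0.12 (adjusted p = 3.09e-05), from 55.7, 49.5 and 59.5 CPM to the 28.6 to 30.3 CPM given above. *MDM2* fell by 0.79 ± 0.14 (adjusted p = 0.000225) and *TP53INP1* fell by 0.74 ± 0.18 (adjusted p = 0.00371). These 4 calls held without any 1 library. *BAX* rose by 0.60 ± 0.19 (adjusted p = 0.0173), from 44.7, 56.0 and 45.5 CPM to 79.8, 75.4 and 62.4 CPM. At day 14, 3 of the 9 differed from day 3 (9.12% of all genes, 3.77% higher and 5.34% lower): *SESN1* rose by 0.68 ± 0.21 (adjusted p = 0.0479), *BAX* rose by 0.67 ± 0.19 (adjusted p = 0.0341) and *ZMAT3* fell by 0.48 ± 0.12 (adjusted p = 0.0236). Of 12 fits without 1 library, 8 lost the call of *SESN1*, 7 that of *BAX* and 4 that of *ZMAT3*, and none of the 9 genes passed without replicate 1 or replicate 3 of FAKi at day 3, or without replicate 2 of FAKi at day 14. Without FAKi day 7 replicate 1 *TP53INP1* also passed (0.46, adjusted p = 0.0104). At day 7 none of the 9 passed with edgeR or DESeq2 (0.849% of all genes), and 3 were below 0.05 without adjustment, while *MDM2* passed there without FAKi day 7 replicate 1 (-0.49, adjusted p = 0.0180). The comparison of FAKi with DMSO at day 14 and that of DMSO day 14 with day 0 share the DMSO libraries of day 14, so they are not independent. Side by side, *TP53INP1* differed by -0.45 and 1.24, *GADD45A* by -0.65 and 0.81, *MDM2* by -0.35 and 0.46, *ZMAT3* by -0.48 and 0.08 and *SESN1* by 0.01 and 0.84. *FAS* differed by -0.36 and 0.93, *BAX* by -0.03 and 0.69 and *PLK3* by -0.20 and 0.03. For *SESN1*, *FAS*, *BAX* and *PLK3* the difference between FAKi and DMSO did not pass.

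**Figure D4:**
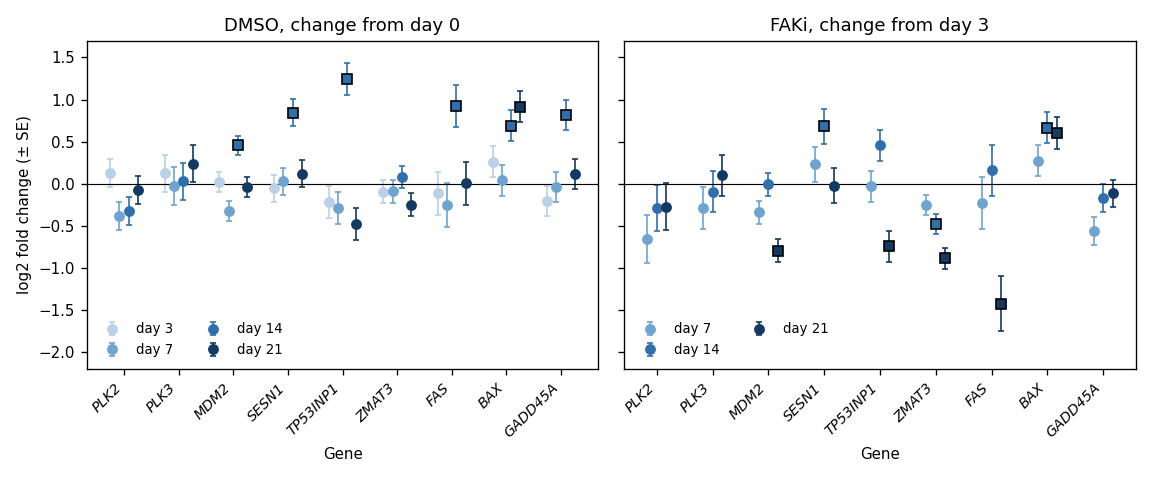
Log2 fold change (y axis, ± SE) of each gene (x axis) from day 0 in DMSO (left) and from day 3 in FAKi (right), with later days in darker blue. Black-outlined squares had an adjusted p no higher than 0.05. In DMSO 6 squares stand above 0 at day 14, and in FAKi 4 stand below 0 at day 21, where *BAX* is at 0.60.

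Other known p53 target genes, a list of 39 of which 36 could be tested, moved in both directions with FAKi. Averaged over the 4 days 12 passed, 5 higher and 7 lower, against 15.7% of all genes (8.7% lower). The median over the list was -0.13 against 0.01 over all genes. *GDF15*, a stress-induced secreted factor, fell most (-1.63 ± 0.22, adjusted p = 1.9e-05). *CDKN1A*, which encodes the cell cycle inhibitor p21, fell by 0.41 ± 0.08 (adjusted p = 0.00167), and *PERP*, *BBC3* and *DRAM1*, genes of cell death and autophagy, fell by 0.39, 0.38 and 0.34. The DNA repair genes *DDB2* (0.55 ± 0.18) and *POLH* (0.32 ± 0.09), together with *SUSD6* (0.39), *ANKRA2* (0.37) and the apoptosome gene *APAF1* (0.29), rose. The count ran from 7 to 18 without 1 library and was 19 with the 3 libraries that stood apart left out. At day 14 it was 10 of 35 (2 higher, 8 lower), against 12.4% of all genes. At day 21 it was 6 of 36 (2 higher, 4 lower), against 11.6% of all genes, and 1 to 20 without 1 library. In DMSO at day 14 against day 0, 13 of 36 passed, 9 higher and 4 lower, against 15.4% of all genes. The count was 8 to 15 without 1 library and 17 with the 3 libraries that stood apart left out.

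**Figure D5:**
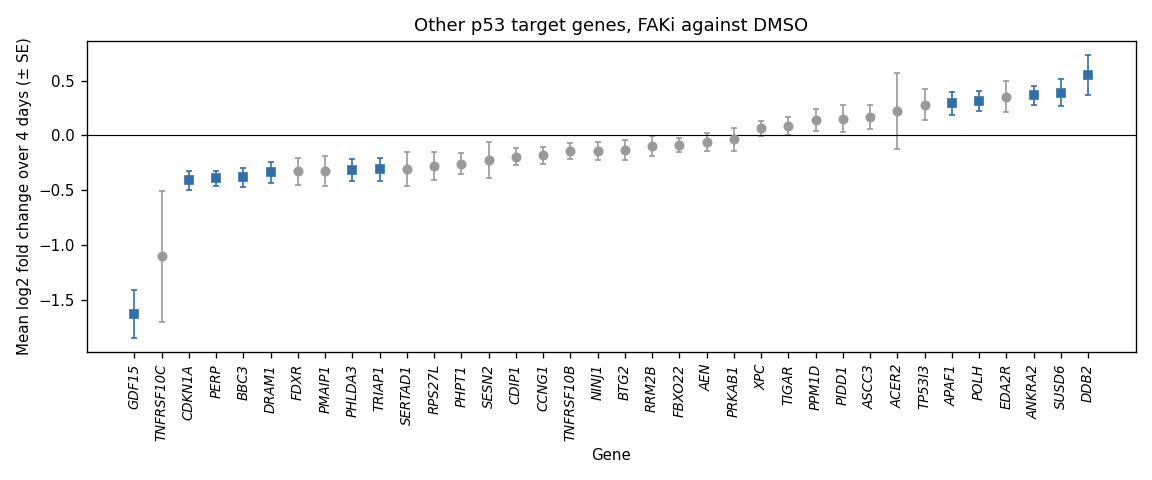
Mean log2 fold change of FAKi against DMSO over days 3, 7, 14 and 21 (y axis, ± SE) for the 36 other p53 target genes that could be tested (x axis, in order of the change). Blue squares had an adjusted p no higher than 0.05 (7 below and 5 above 0) and grey circles did not. *GDF15* lies lowest at -1.63.

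Among the other polo-like kinases, *PLK4*, the regulator of centriole duplication, rose (0.60 ± 0.14, adjusted p = 0.00431), and *PLK1* and *PLK5* did not pass in the mean effect, although the mitotic kinase gene *PLK1* fell at day 21 (-0.82 ± 0.16, adjusted p = 0.0199). Among the relatives of the 9 genes, *GADD45B* fell in the mean effect (-0.93 ± 0.11, adjusted p = 4.81e-06) and *SESN3* rose (0.42 ± 0.12, adjusted p = 0.0243). This made 2 of 4 tested, against 15.7% of all genes. The *SESN3* effect differed among days (adjusted p = 0.0131), and at day 14 *SESN3* was lower with FAKi (-0.63 ± 0.13, adjusted p = 0.00244). A list of p53 and its regulators had 4 of 18 genes past the test of the mean effect, against 15.7% of all genes. *TOPORS* (0.40), *TP53BP1* (0.25) and *MDM4* (0.22) rose and *COP1* fell (-0.22). That count was 1 to 8 without 1 library and 9 with the 3 libraries that stood apart left out. The Fas and Bax cell death machinery had 3 of 16 genes past the test, *CYCS* (-0.38), *DIABLO* (-0.28) and *APAF1* (0.29), against 15.7% of all genes. The count was 1 to 5 without 1 library and 5 with the 3 libraries that stood apart left out. The *CYCS* effect differed among days (adjusted p = 0.00259), from 0.07 at day 7 to -1.20 at day 21. Serum-inducible early genes, the class in which *PLK2* was first placed, had 4 of 12 past the test, against 15.7% of all genes. *FOSB* (-0.94), *ATF3* (-0.41) and *IER2* (-0.40) fell and *KLF6* rose (0.51), with a list median of -0.23. The count was 4 to 8 without 1 library and 7 with the 3 libraries that stood apart left out. The FAKi effect differed among days for 7 of 12, against 10.3% of all genes. Between FAKi and DMSO at day 14, 4 of 12 passed, 3 higher and 1 lower, against 12.4% of all genes. These were *EGR1* (2.41), *CCN1* (1.10), *JUNB* (0.53) and *ATF3* (-1.38), and the list median was 0.10. At day 21, 4 of 12 passed, 1 higher and 3 lower, against 11.6% of all genes. In DMSO at day 14, 10 of these 12 differed from day 0, 9 of them lower, against 15.4% of all genes. That count was 5 to 11 without 1 library, 5 being without DMSO day 0 replicate 1, and 7 with the replicate block.

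The genes whose log2 CPM ran most like that of *PLK2* over the 27 libraries were *SBK1* (Pearson r = 0.895), *HSPB7* (0.871), *ALK* (0.869), *RGS2* (0.858) and *GADD45B* (0.852), out of 16981 genes with a mean of at least 1 CPM. Those that ran most opposite were *FARP1* (-0.863), *OCA2* (-0.859) and *MTURN* (-0.837). The 27 libraries share the 2 treatments, so these values include the difference between them. Within the 12 FAKi libraries r was 0.622 for *SBK1*, 0.602 for *HSPB7*, 0.595 for *ALK*, 0.616 for *RGS2* and 0.468 for *GADD45B*. Within the 15 DMSO libraries it was 0.639, 0.745, 0.771, 0.391 and 0.300 in the same order. The p53 target genes chosen with *PLK2* ran less like it, from 0.40 for *MDM2* and 0.40 for *PLK3* to -0.24 for *SESN1*. Among themselves the closest pairs were *FAS* with *MDM2* (0.853), *SESN1* with *TP53INP1* (0.814) and *FAS* with *TP53INP1* (0.794), and *BAX* ran opposite to *ZMAT3* (-0.536). These are descriptions over libraries that share days and treatments.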

How the data were processed

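RNA from 92.1 cells was made into libraries with a stranded mRNA kit. Per the labels, reads were handled with Trim Galore, FastQC 0.11.8 and STAR 2.5.3a on hg38, and per the file headers HOMER summed raw reads over exons of 1 transcript per gene. The deposited values are raw counts for 61533 genes, of which 17687 had no count. Groups and replicate numbers came from the labels. The methods describe triplicate wells and repeats of the experiment and the labels do not say which a replicate is, so p-values measure the spread between these libraries, which may be technical. The 9 genes, the gene lists and the tests were chosen with earlier results of these data known.

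Counts with a total of at least 20 were fitted with edgeR 4.0.16 in R 4.3.3 (TMM scaling, quasi-likelihood test, Benjamini-Hochberg adjustment). Each day was fitted on 6 libraries, the mean effect and its difference among days on 24, the DMSO time course on 15 and the FAKi time course on 12. Adjusted p-values are from these fits over all genes. Levels are TMM-scaled CPM over 27 libraries. The genes named beyond the 9 are, per list, up to 5 in each direction past the test of the mean effect, and the 5 most and 3 least like *PLK2*. *PLK1*, *PLK5*, *EGR1*, *CCN1*, *JUNB* and the marker genes lie outside this rule and were named after their values were seen. Alternatives were DESeq2 1.42.0, 2 other scalings, 2 other filters, a replicate block, all 27 libraries in 1 fit and each library left out; leaving out 3 libraries together was chosen after seeing the data. Same-numbered libraries deviated together at day 21 for replicates 1 and 3 (r = 0.443 and 0.658). For replicate 2 of day 21 r was 0.128, near the highest value of day 3 (0.000838 to 0.107). At day 7 (-0.144 to -0.0716) and day 14 (-0.0258 to 0.00966) they did not deviate together. On simulated data 193 of 200 genes changed by 1 on the log2 scale were recovered for FAKi against DMSO at day 14, with 6 false calls among 23104 genes. The simulation used independent libraries, the same spread for every gene, and changed genes of middle level only. Libraries that stand apart were not simulated. The 4 genes called at day 14 changed by less, -0.65 to -0.35, so recovery and false calls for such changes in the real libraries were not measured.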

Additional observations from a re-analysis of the deposited data

Results flagged for a closer look

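The FAKi effect differed among days 3, 7, 14 and 21 by the F test of the interaction for *MDM2* (adjusted p = 0.0270), *TP53INP1* (0.0349), *ZMAT3* (0.0438), *FAS* (0.0423) and *GADD45A* (0.0131). *GADD45A* and *TP53INP1* had positive differences at day 3 (0.53 and 0.55) and negative ones at day 14 (-0.65 and -0.45). *MDM2*, *ZMAT3* and *FAS* went from 0.08, 0.16 and 0.52 at day 3 to -0.62, -0.54 and -0.99 at day 21. The number of genes with a difference among days was 5 with the 3 libraries that stood apart left out together, 2 with the replicate block, 2 with no count filter and 2 to 5 without 1 library.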

How the results depend on the processing

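*PLK2* was lower with FAKi on each day under every alternative, by -1.26 to -0.89 at day 3, -1.61 to -0.93 at day 7, -1.03 to -0.76 at day 14 and -1.20 to -0.999 at day 21. It was chosen for lower counts in these same libraries, so these refits are no independent check of its fall. The number that passed, of the other 8 genes between FAKi and DMSO and of all 9 genes over time within a treatment, changed by over 1.5 times as follows. For FAKi against DMSO at day 21 it was 1 and became 2 with RLE scaling and with no count filter, and 3 with DESeq2, with the replicate block and with all 27 libraries in 1 fit, in which 1 gene also had a fold change over 1 on the log2 scale against 0. With all 27 libraries in 1 fit it was 1 at day 3 against 0 and 2 at day 14 against 4. The mean effect gave 1 in place of 2 with no count filter. The difference among days gave 2 in place of 5 with no count filter and with the replicate block, and the change from day 3 to day 21 gave 0 and 1 in place of 3. In DMSO at day 21 against day 0 the number was 1 and became 2 with upper quartile scaling, with no count filter, with 10 counts in every library and with DESeq2, and 3 with the libraries that stand apart left out. Without 1 library the numbers ran from 0 to 1 at day 3, 1 to 4 at day 14, 0 to 4 at day 21, 1 to 2 for the mean effect, 2 to 5 for the difference among days, 0 to 3 for the change from day 3 to day 21, 3 to 6 and 1 to 3 for DMSO days 14 and 21 against day 0, and 0 to 2 and 0 to 4 for FAKi days 7 and 14 against day 3. Of 2881 single-gene values under alternatives, 157 lost a call, 43 gained one and 0 reversed, and the cause was not tested. At days 3, 7 and 14 the replicate numbers showed no clear pairing of the libraries. For the 9 genes the block changed no call on these days or in the mean effect. *FAS*, with 14 to 135 counts per library, has the least depth behind its values.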
